A study of Mus musculus with 6 samples.

Results

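The core circadian clock genes were followed in the left ventricle of mice with and without the protein kinase Akt2. They are 10 genes: Arntl (also called Bmal1), Clock, Per1, Per2, Per3, Cry1, Cry2, Nr1d1, Nr1d2 and Dbp. Members were every probe set, a group of short array probes that reads 1 transcript, to which the platform annotation gives exactly 1 of these symbols. This gave 23 of the 45101 probe sets on the array, from 10 of the 18194 genes that the annotation names singly. Akt2 is known as a carrier of insulin signals. Left ventricles came from male mice aged 12 to 16 weeks, 3 samples with a targeted akt2 disruption (akt2-/-, called knockout) and 3 wild type, with 1 Affymetrix array each. The disrupted allele had been crossed to C57BL/6 wild type mice more than 7 times, and the labels name no treatment and no tissue to which the disruption was limited. Whether the samples of 1 genotype were separate animals is not stated in the labels, so p-values cover the spread between samples alone, which may be technical. The hour of harvest and the light schedule were not found in the labels.

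The clock of mammalian cells is a feedback loop of transcription that turns over about once a day. ARNTL and CLOCK bind together to E-box elements and switch on the Per and Cry genes, whose proteins return to the nucleus and block them. The same pair switches on Nr1d1 and Nr1d2, whose proteins repress Arntl through ROR elements, and Dbp, whose protein acts on D-box elements of many output genes. In the heart, as in most tissues, Arntl RNA is known to peak at the opposite time of day to Nr1d1, Dbp and the Per genes, so a level read at 1 time reports a position in a cycle. The clock of heart muscle is known for setting daily rhythms of substrate use and of ion channel expression.

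The letters known for the elements of the loop stand before the start of some members, and stretches that hold them are shown. A match is a description and not a bound site. The RefSeq promoter table of build GRCm38.p6 held 13 start sites of 9 members, all but Per2. The 250 bases before each start were searched on both strands for the E-box CACGTG, the D-box TTATGTAA or TTACGTAA, the core of the ROR element AGGTCA, and the cyclic AMP element TGACGTCA. The E-box was found before 2 of the 13 starts, of Per1 and Cry1, and the D-box before 1, of Per3. The ROR core was found before 3, of Clock, Per1 and Nr1d2, and the Clock stretch is not shown. In these windows no ROR core stood before Arntl, and no E-box before Nr1d1, Nr1d2, Dbp, Cry2 or Per3. Most links of the loop described above were thus not seen in these windows. The cyclic AMP element was found before none. Of 32851 windows of this length, 6.02% held the E-box, 0.931% a D-box, 14% the ROR core and 1.55% the cyclic AMP element. The window of Per3 held its D-box 2 times, and 0.0213% of all windows held 2 or more. Motifs are in capitals with 15 bases on each side, written 5′ to 3′ along the gene's strand. In these runs TGACCT is the ROR core read on the other strand.
Per1, chr11:69098768-69098832, plus strand: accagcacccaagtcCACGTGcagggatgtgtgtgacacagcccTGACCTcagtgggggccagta
Cry1, chr10:85185094-85185129, minus strand: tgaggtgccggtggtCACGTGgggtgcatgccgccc
Per3, chr4:151044801-151044885, minus strand: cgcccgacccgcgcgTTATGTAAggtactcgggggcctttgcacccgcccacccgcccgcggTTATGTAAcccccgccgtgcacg
Nr1d2, chr14:18239163-18239198, minus strand: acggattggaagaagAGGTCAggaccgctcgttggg

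Akt2 itself bore out the labels, with 2362.6, 2561.3 and 2505.4 in the wild type and 477.8, 394.5 and 255.4 in the knockout on its brightest probe set. Markers of cardiac muscle were all tested, 6 of 6, with summed signals of 263100 to 770200 in the wild type and 316100 to 502100 in the knockout, while those of fat, 3 of 4 on the array, summed to at most 131.5. The replicate 1 arrays, 1 of each genotype, were unlike the other 4. Median signals of their 18S ribosomal RNA controls were 82330 and 57280, against 152.7 to 446.7, those of their poly-A controls were 56.15 and 59.6, against 532.3 to 945.5, and their medians over all probe sets were 167.3 and 134.4, against 88.6 to 91.4. Values for the replicate 1 pair and for replicates 2 and 3 therefore stand beside many of the pooled ones.

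No clock gene passed the test between the genotypes, and the differences of the brightest probe sets ran from -0.11 for Cry2 to 0.43 for Cry1 on the log2 scale. In all 23 probe sets the knockout arrays overlapped the wild type arrays. The groups lay apart in 7.30% of all tested probe sets, a share at which few or none of so small a set would do so. Of the 23, 19 passed the filter on low signals and were tested with limma over 22519 probe sets. Of these 19, 0 had an adjusted p under 0.05, as did 0% of all probe sets, and the adjusted p of each was 0.9999. Unadjusted p was under 0.05 for 0 of 19, against 2.01% of all probe sets. With the replicate 1 arrays as a block it was again 0 of 19, against 7.77%. Of the tested members 13 were higher and 6 lower in the knockout, with a median log2 difference of 0.13 against 0.01 over all tested probe sets. With arrays centred on their medians, which moved the median of all probe sets to 0.10, 16 were higher and 3 lower, with a median of 0.22. On the deposited scaling the median size of the difference, sign aside, was 0.145 for the tested members and also for all tested probe sets. Each log2 value is log2(signal + 21.7), with the 20th percentile of all signals as pseudocount, so that a difference understates the change of a dim gene. In bulk tissue, fewer cells of a type and less RNA per cell cannot be told apart. All 4 atrial markers were higher in the knockout, with a median log2 difference of 0.54. All 4 endothelial and all 4 macrophage markers were lower, with medians of -0.19 and -0.12. Groups lay apart in 2 of these endothelial markers, against 7.46% of all genes, and no marker had a limma adjusted p under 0.05. The atrial marker Myl7 ran from 96.5 to 1246.3 among wild type arrays. Tissue makeup was not tested.

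**Figure D1:**
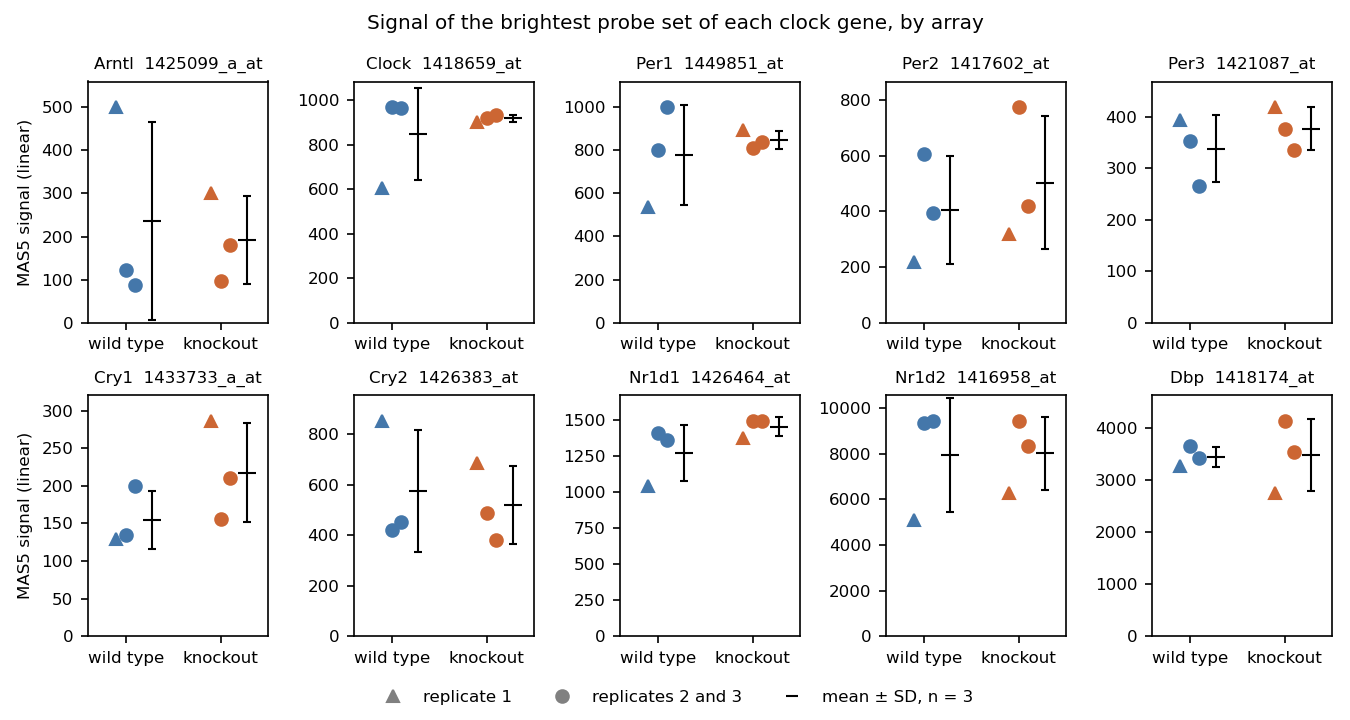
MAS5 signal (linear axis from 0) of the brightest probe set of each of the 10 clock genes in the 3 wild type (blue) and 3 knockout (orange) arrays, with triangles for replicate 1, circles for replicates 2 and 3, and the mean ± SD beside them. The groups overlap in each of the 10 panels, and in 7 of them, all but Per1, Cry1 and Nr1d1, both triangles lie on 1 side of all 4 circles. Both replicate 1 arrays lay above the other 4 in 31.4% of all probe sets that are no controls, and below them in 12.8%.

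Arntl encodes the activator of the loop whose RNA is known to cycle strongly. Its brighter probe set, 1425099_a_at, had signals of 499.1, 121.5 and 87.7 in wild type arrays 1, 2 and 3 and of 300.2, 96.0 and 180.3 in the knockout arrays. The replicate 1 array was the highest of each genotype, and the groups overlapped. The difference was -0.03 (SE 0.642), with a 95% interval of -1.56 to 1.497, the widest of the members. Alone, the replicate 1 pair gave -0.69, and the other 2 pairs 0.30. The pooled value turned to 0.06 when arrays were centred on their medians. A dimmer Arntl probe set, 1457740_at, did not pass the filter and read 166.9, 89.5 and 79.0 against 102.1, 92.5 and 13.6, also with both replicate 1 arrays above the rest.

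Clock encodes the partner of ARNTL and is known to cycle weakly or not at all. Its brightest probe set, 1418659_at, had signals of 607.4, 967.6 and 964.5 in the wild type and of 900.3, 921.9 and 931.9 in the knockout. Outside wild type array 1, the other 5 arrays lay within a narrow band. Knockout arrays averaged 918 ± 16.2 and wild type arrays 846.5 ± 207 (SD, n = 3 each). Their log2 difference was 0.14 (SE 0.228), and -0.06 over replicates 2 and 3. The other tested Clock probe sets gave 0.06 and 0.23, and a dim one at 63.0 to 144.2 was not tested.

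Of the repressors, the Per genes encode proteins that gather with the CRY proteins and close the loop. Per1, which also answers quickly to hormones and cyclic AMP, was read by 1 probe set, with 534.7, 799.1 and 996.0 in the wild type and 890.8, 809.9 and 834.0 in the knockout. The wild type arrays enclosed all 3 knockout arrays. Per1 differed by 0.16 on the log2 scale (SE 0.252), by 0.71 in the pair of replicate 1 and by -0.12 in the other 2 pairs. Without wild type replicate 1 it was -0.08, so its sign rested on that array.

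Per2, a repressor that cycles strongly and is known to answer to food and light, was brightest on 1417602_at. It read 219.5, 605.0 and 393.1 in wild type arrays 1, 2 and 3 and 317.6, 772.9 and 417.5 in knockout arrays 1, 2 and 3. In each genotype array 1 was the lowest and array 2 the highest, and each knockout array exceeded the wild type array of its own number while the groups overlapped. What a number stands for is not in the labels, and knockout array 3 was below wild type array 2. The share of all probe sets with such an order was not computed. The mean was 502.7 ± 239 against 405.9 ± 193, a log2 difference of 0.31 (SE 0.443) with an interval of -0.75 to 1.36. With the replicate number as a block the unadjusted limma p was 0.0955 and the adjusted p 0.827. The other Per2 probe sets gave 0.13 and -0.16, the latter with 105.4 in knockout array 1 against 195.3 in wild type array 1.

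Per3, whose promoter stretch above holds the pair of D-boxes, had 6 probe sets, of which 4 were tested. The brightest, 1421087_at, read 393.9, 352.7 and 266.4 in the wild type and 418.2, 377.0 and 335.9 in the knockout. Again each knockout array was above the wild type array of its number, by a log2 difference of 0.16 (SE 0.208) in the mean, and the groups overlapped. Here too knockout array 3 was below wild type array 2, so the order rests on numbers of unknown meaning. The other tested ones disagreed in sign at 0.11, -0.41 and 0.20. The value of -0.41 came from 1458176_at, where wild type array 1 read 515.8 and the other wild type arrays 202.4 and 158.4. With the replicate 1 arrays as a block this probe set had the lowest unadjusted limma p of the members, 0.078, with an adjusted p of 0.652. The untested ones were at 15.1 to 154.9.

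Cry1 and Cry2 encode the stronger repressors of the loop. Cry1 had the largest difference of all tested members, with 129.7, 134.3 and 199.2 in the wild type and 286.3, 156.5 and 210.3 in the knockout. The lowest knockout array was below the highest wild type array. The log2 difference was 0.43 (SE 0.27), with an interval of -0.21 to 1.07 and an unadjusted limma p of 0.158. Its replicate 1 pair differed by 1.03, and its replicates 2 and 3 by 0.13. Without knockout replicate 1 the difference was 0.23. Cry2 went the other way in the mean, with 853.2, 420.6 and 451.7 in the wild type and 686.7, 489.6 and 383.4 in the knockout, a log2 difference of -0.11 (SE 0.338). Its difference was -0.30 in the pair of replicate 1 and -0.0078 in replicates 2 and 3.

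Nr1d1 and Nr1d2 encode the haem-binding nuclear receptors REV-ERBα and REV-ERBβ, which repress Arntl. Nr1d1 was among the steadiest members, with 1047.0, 1410.0 and 1362.8 in the wild type and 1379.0, 1495.5 and 1496.7 in the knockout. Knockout array 1 lay between the wild type arrays, and the knockout arrays 2 and 3 were above all wild type arrays. The log2 difference was 0.20 (SE 0.189), with the narrowest interval of the members, -0.25 to 0.65. Nr1d2 read 5074.6, 9339.2 and 9435.2 against 6276.3, 9429.0 and 8317.8 on its brightest probe set. Both replicate 1 arrays were below the other 4, and the means of 8008 ± 1599 in the knockout and 7950 ± 2490 in the wild type gave a log2 difference of 0.05 (SE 0.305). The second Nr1d2 probe set, 1416959_at, read 520.8, 1278.3 and 1045.7 against 845.9, 1154.5 and 937.1, again with both replicate 1 arrays lowest, and differed by 0.13 (SE 0.347). In replicates 2 and 3 both probe sets had the other sign, -0.08 and -0.15.

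Dbp, the output factor that acts on D-boxes, was the member with the smallest difference. Its probe set 1418174_at read 3267.0, 3637.3 and 3410.2 in the wild type and 2746.1, 4127.8 and 3536.0 in the knockout. The knockout arrays enclosed the wild type arrays, with a log2 difference of -0.0051 (SE 0.206) and an interval of -0.50 to 0.49. A second one, 1438211_s_at, read 4296.1, 3001.1 and 2891.0 against 3814.1, 3183.4 and 2853.3, a difference of -0.04 (SE 0.229). Both values turned positive, at 0.09 and 0.06, with arrays centred on their medians, and also in replicates 2 and 3, at 0.12 and 0.03.

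**Figure D2:**
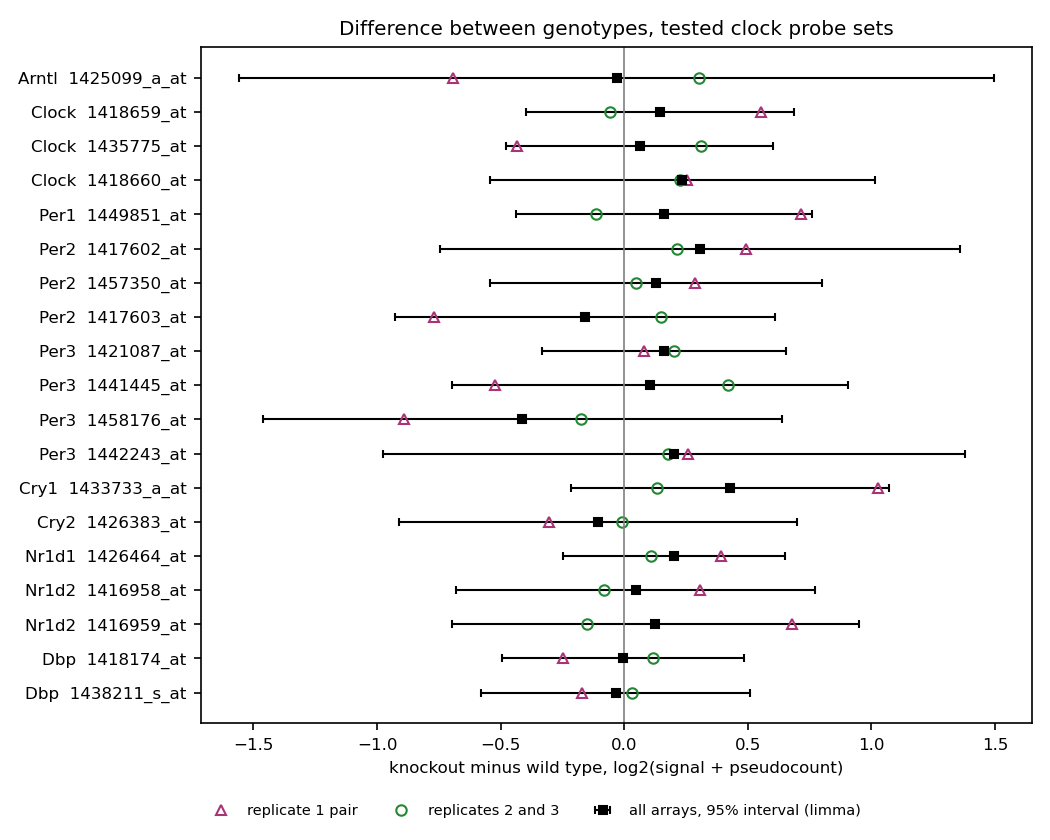
Knockout minus wild type difference on the scale log2(signal + 21.7) for the 19 tested clock probe sets, as squares with 95% limma intervals over all 6 arrays, with triangles for the replicate 1 pair and circles for replicates 2 and 3. Every interval includes 0, and the triangle and the circle lie on opposite sides of 0 in 10 of the 19.

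All 19 intervals included 0, and 13 of them lay within a 2-fold change either way. The 6 that reached beyond were those of Arntl, Cry1, and single probe sets of Clock and Per2 and 2 of Per3. With the replicate 1 arrays as a block, 18 of 19 lay within that range, all but Cry1 at -0.19 to 1.05. For Dbp the interval of 1418174_at was then -0.35 to 0.34, for Nr1d2 on its brightest probe set -0.29 to 0.39, and for Arntl -0.78 to 0.71. A p that misses the threshold does not show that the genotypes were alike, and these arrays do not exclude a difference that lies inside an interval.

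Larger differences lay between the replicate 1 arrays and the other 4, and they depended on how arrays were scaled. In 1 limma fit with genotype, the median size of this difference was 0.59 over the members and 0.42 over all tested probe sets, but 0.55 and 0.58 with arrays centred on their medians. Of the 19 members 8 had an adjusted p under 0.05, against 33.1% of all tested probe sets. On the deposited scaling 7 were higher in the replicate 1 arrays and 1 lower, where 20% of all probe sets were called higher and 13.2% lower. With quantile normalization 4 members were higher and 3 lower, against 12.9% and 16.2% of all probe sets. With arrays centred on their medians 1 was higher and 8 lower, against 3.64% and 46.3%. For this contrast these 2 scalings were added after the values were seen, and they moved the median of all probe sets from 0.10 to -0.05 and to -0.52.

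Arntl and the brightest Nr1d2 probe set, a pair named after their values were seen, were called in opposite directions under all 3 scalings. Arntl was higher in the replicate 1 arrays by a log2 difference of 1.56 (SE 0.321, limma adjusted p = 0.0189), by 1.30 with quantile normalization (adjusted p = 0.0342) and by 0.94 with median centring (adjusted p = 0.0328). Nr1d2, whose product represses Arntl, was lower on 1416958_at by a difference of -0.69 (SE 0.147, adjusted p = 0.0203), of -0.57 (adjusted p = 0.0342) and of -1.31 (adjusted p = 0.00421). Its second probe set was at -0.71 (adjusted p = 0.0602) and at -0.72 with quantile normalization (adjusted p = 0.0672). It was called only with median centring, at -1.325 (adjusted p = 0.0103). Nr1d1 was at -0.26 (adjusted p = 0.165) and Per1 at -0.30 (adjusted p = 0.319). Neither was called with quantile normalization, at -0.20 and -0.31, and both were called lower with median centring, at -0.88 and -0.92. Cry2 was higher by 0.79 (adjusted p = 0.0174) and by 0.76 with quantile normalization, but by 0.17 and without a call with median centring. Per2 on its brightest probe set was at -0.94 (adjusted p = 0.054), and was called lower at -1.23 and -1.56 under the other scalings.

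Probe sets of 1 gene did not always move the same way between these arrays. For Dbp, 1438211_s_at was called higher at 0.44 (limma adjusted p = 0.0458), and turned to -0.18 with median centring, while 1418174_at was at -0.29 with both replicate 1 arrays below the other 4. Per2 had 0.59 (adjusted p = 0.0387) on 1457350_at, which turned to -0.03 with median centring, and -0.60 on its last one. Clock had 0.72 (adjusted p = 0.0288) on 1418660_at and -0.35 on its brightest one. No direction is therefore drawn for Dbp, Per2 and Clock as genes. Per3 had 1.06 and 1.17 on the 2 of its 4 that were called, and neither was called with median centring, at 0.44 and 0.55. Which stretch of the transcript a probe set reads was not looked up.

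Among all 23 probe sets the 2 replicate 1 arrays lay above the other 4 in 11 and below them in 6. Over all 45037 probe sets that are no controls, 31.4% lay above and 12.8% below. A replicate 1 array was the highest or the lowest of the 6 in 23 of 23, and in 87.6% of all probe sets. Their 18S and poly-A controls and median signals moved with this, as did all 6 cardiac muscle markers, called higher in them on the deposited scaling. Of the endothelial markers 2 of 4 were called lower, and of the fibroblast markers 1 of 4 higher and 2 lower. Of the macrophage markers 1 of 4 was called lower, and of the atrial markers 0 of 4 were called. Over all genes 34.0% were called between these arrays, in either direction. The part of labelling, of tissue makeup and of the time of harvest in the clock differences was not tested.

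**Figure D3:**
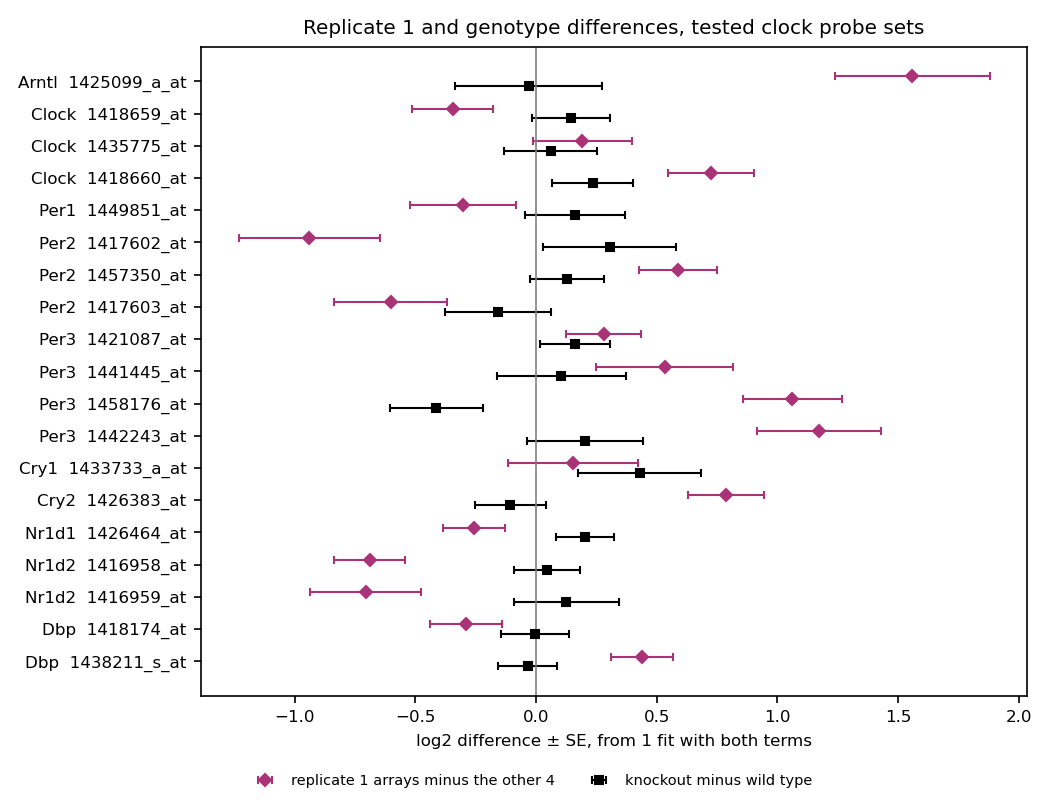
Log2 differences ± SE of the 19 tested clock probe sets from 1 limma fit with both terms, as diamonds for the replicate 1 arrays minus the other 4 and as squares for knockout minus wild type. On the deposited scaling the diamonds run from -0.94 for Per2 to 1.56 for Arntl, while the squares stay between -0.41 and 0.43.

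Single clock genes also differed between replicates 2 and 3, as values with no test. The replicate 2 array was above the replicate 3 array on all 3 Per2 probe sets in both genotypes, by log2 differences of 0.60 in the wild type and 0.86 in the knockout on the brightest one. Cry1 had the reverse, with -0.50 and -0.38. Dbp was slightly higher in replicate 2 on both probe sets in both genotypes, at 0.05 to 0.22. Arntl moved apart between the genotypes, with 0.39 in the wild type and -0.78 in the knockout. Of the 19 tested members, 12 had the same sign in both genotypes, or 63.2%, against 52% of all tested probe sets, but 3 of the 19 read Per2, and with 1 probe set a gene, the brightest, it was 5 of 10. These genes were singled out after their values were seen, and the labels do not say what a replicate number stands for.

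Other genes of the clock were taken from a list of 25, of which 23 were on the array and 20 were tested at the level of genes, each by its brightest probe set. Of 11075 genes tested, 0% had a limma adjusted p under 0.05, and 0 of the 20 did. Unadjusted p was under 0.05 for 0 of 20, against 2.17% of all genes, and also for 0 with the replicate 1 arrays as a block, against 8.32%. The median log2 difference was 0.07 for the list, 0.15 for the 10 members and 0.01 for all genes. Groups lay apart in 3 of 20, against 7.46% of all genes. Bhlhe40, a repressor of the E-box, read 1576.5, 1686.0 and 1526.2 in the wild type and 1775.7, 2156.9 and 1827.2 in the knockout (log2 0.26, SE 0.16). Timeless, a relative of the fly clock gene, read 778.1, 809.8 and 810.9 against 709.7, 668.1 and 711.9 (log2 -0.19, SE 0.145), and Csnk1e, a kinase of the PER proteins, differed by 0.09. Btrc, part of the ubiquitin ligase that marks PER for decay, had the third lowest p of the list, 0.301, with a log2 difference of 0.28 (SE 0.247) and groups that overlapped.

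The relatives of Dbp were also read between the replicate 1 arrays and the other 4. There, 6 of 20 list genes and 3 of 10 members passed at the level of genes, against 34.0% of all genes. Of the 6 list genes, Wdr5 (0.63), Gsk3b (0.53) and Prkaa2 (0.62) were higher and Hlf, Ciart and Fbxw11 (-0.51) lower. Hlf, a factor of the same family as Dbp, had a difference of -1.06 (limma adjusted p = 0.00875), with 486.3 and 557.4 in the replicate 1 arrays against 1004.7 to 1341.1 in the others. Ciart, a repressor of CLOCK and ARNTL, had -0.68 (adjusted p = 0.0101), with 444.2 and 486.4 against 706.7 to 801.0. Both were called lower under the other 2 scalings as well, Hlf at -1.10 and -1.68 and Ciart at -0.75 and -1.30. Tef, a further factor of that family, had -0.22 and was not called, but was at -0.84 with median centring. These genes were chosen after their values were seen.

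Genes widely described as cycling in heart or in most tissues gave 28 tested of 30. Of these, 0 had a limma adjusted p under 0.05 and 0 an unadjusted p under 0.05 without a block. With the replicate 1 arrays as a block 4 had one, where 8.32% of all genes did. These 4, Kcnd2, Cirbp, Cdkn1a and Pdk4, named here by their p in that fit, were all lower in the knockout. A trended, robust variance gave 6 of 28 (1871 of 22519 probe sets), and replicates 2 and 3 alone 7 of 28 (2096 of 22519 probe sets). Shares of genes were not computed for those 2 fits. Of the 28, 16 were higher and 12 lower, with a median log2 difference of 0.03. Pik3r1, a regulatory subunit of phosphoinositide 3-kinase, read 1700.2, 1369.3 and 2365.2 in the wild type and 2429.1, 2694.9 and 2428.8 in the knockout (log2 0.50, SE 0.227). Cdkn1a, an inhibitor of the cell cycle, read 821.5, 935.8 and 1016.0 against 718.5, 723.0 and 774.5 (log2 -0.31, SE 0.159). Groups lay apart in these 2 of 28, near the 7.46% of all genes. Cirbp, an RNA-binding protein induced by cold, gave -0.38 (SE 0.203) with groups that overlapped.

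Since Per1 also answers to glucocorticoid and to cyclic AMP, genes known for those responses were set beside it. Of 10 glucocorticoid responsive genes, all tested, 5 were higher and 5 lower in the knockout, with a median of -0.02. The list's median was 0.40 for the pair of replicate 1 and -0.21 for the other 2 pairs. Cdkn1a, Pdk4 (log2 -0.42, SE 0.263) and Errfi1 (-0.38, SE 0.334) had the lowest p, and none passed. Of 11 tested genes of the cyclic AMP and immediate early list, 11 were higher in the knockout under all 3 scalings. Median centring put the median of the list at 0.32 and that of all genes at 0.11. On the deposited scaling the list's median was 0.22, and 53.3% of all genes were higher. The median was 0.93 for the pair of replicate 1 and 0.16 for the other 2 pairs, in which 7 were higher and 4, Fos, Junb, Egr1 and Dusp1, lower, genes named after their values were seen. Nr4a1, an orphan nuclear receptor, read 2367.9, 1239.3 and 822.1 against 6182.0, 2473.2 and 2451.7 (log2 1.30, SE 0.494), and Nr4a2 gave 1.70 (SE 0.657). Groups lay apart in these 2 of 11, against 7.46% of all genes, and overlapped in Nr4a3 (1.28, SE 0.832). Their limma adjusted p was 0.9999 without a block. That of Nr4a1 was 0.72 with the replicate number as a block, 0.31 with the replicate 1 block, and 0.00986 with that block and a trended, robust variance, the 1 fit of these in which it passed, along with 0.0451% of all genes. Per1, at 0.16, overlapped between the genotypes on the same arrays, as did Fos, Junb, Egr1 and Dusp1. Per1 was higher in the knockout in the pair of replicate 1, at 0.71, and lower in the other 2 pairs, at -0.12. Those 4 genes had these signs, and so did Fkbp5, Tsc22d3, Sgk1, Ddit4, Errfi1 and Klf15 of the glucocorticoid list. Klf9, Zbtb16, Cdkn1a and Pdk4 of that list did not. No likeness of Per1 to 1 of these lists is therefore drawn.

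**Figure D4:**
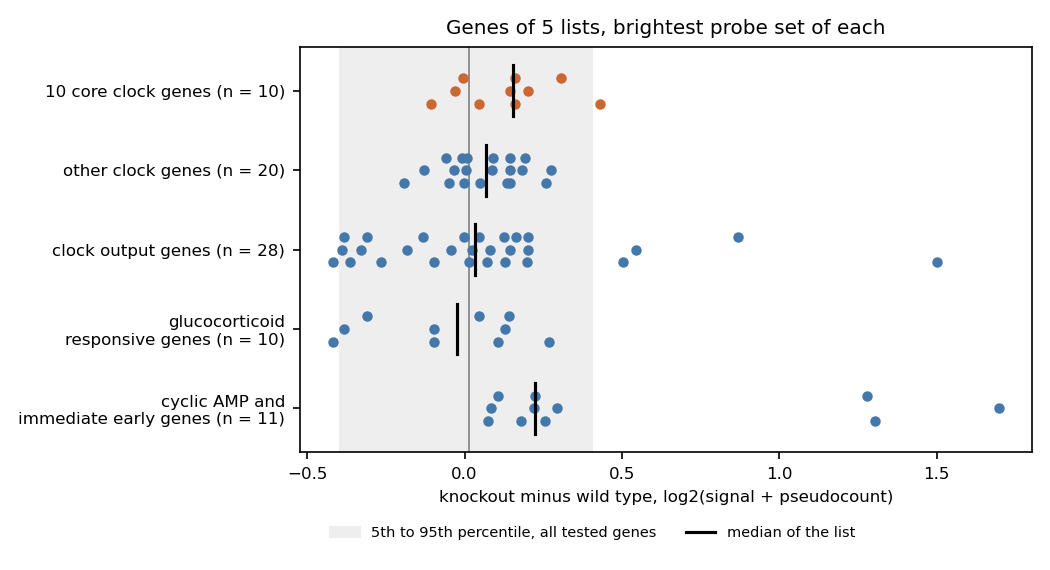
Knockout minus wild type difference on the scale log2(signal + 21.7), 1 point a gene by its brightest probe set, for the 10 core clock genes (orange) and 4 other lists (blue), with a black bar at each list's median and a grey band from the 5th to the 95th percentile of all 11075 tested genes, -0.40 to 0.40. Of the core clock genes 9 lie inside the band, and Cry1, at 0.43, lies just outside it.

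By mean signal 8 of the 10 members held the same rank in both genotypes, and Arntl and Cry1 changed places at the low end. Signals of different probe sets are not on 1 scale, so this is no order of transcript abundance. The genes most like Dbp and Arntl were sought by Pearson correlation of log2 values over the 6 arrays, after the mean of the replicate 1 pair and that of the other 4 were taken out. For Dbp these were Zc3h10, Podn, Capn10, Pcsk6 and AI839979, with r of 0.991 to 0.996. For Arntl they were Preb, Sfmbt1, Rita1, Dcaf17 and Mvb12b, with 0.992 to 0.999. Over so few arrays, among 11075 genes, coefficients of this size are a description only.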

How the data were processed

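Per the labels' protocols, biotin-labelled cRNA was made from 12 ug of total RNA of each left ventricle. The authors deposited 1 linear intensity per probe set and array, which the submitters' processing notes credit to MAS5, its version and settings unstated there. That scaling was kept. The platform annotation named the probe sets. Values were put on the scale log2(signal + 21.7). Control probe sets, 64 in all, were left out. Of the rest, 22519 reached the median of the mean log2 values, 6.868, and entered limma (version 3.58.1, R 4.3.3, functions lmFit and eBayes, no covariate, Benjamini-Hochberg adjustment, threshold 0.05), as did 11075 genes by their brightest probe sets. The fits were tested on simulated data with independent noise and no difference between replicate numbers. That test therefore does not show how they perform with the replicate 1 difference of these arrays.

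Members, lists and tests were chosen with earlier results of these data known. By rule the text names all members, and of each other clock, output and responsive list the genes whose groups lay apart and the 3 with the lowest p. Further genes of these lists were named after their values were seen. Same-numbered arrays deviated together from their genotype means, with correlations of 0.61, 0.45 and 0.39 for numbers 1, 2 and 3, so by rule the number was also fitted as a block. Arrays 2 and 3 of unlike number correlated as much, at 0.44 and 0.36, so these values set the replicate 1 arrays apart and do not tell numbers 2 and 3 from each other. Further alternatives were other pseudocounts (1 and 100), filters (none and the 75th percentile), scalings, variance estimates, thresholds and arrays left out.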

Additional observations from a re-analysis of the deposited data

How the results depend on the processing

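Under 11 alternatives (12 for member genes) and the 6 fits that each left out 1 array, 0 member probe sets, 0 member genes, 0 other clock genes and 0 output genes had a limma adjusted p under the threshold, and the lowest adjusted p of a member was 0.577. The replicate block gave 0 member probe sets as well. Of the glucocorticoid and cyclic AMP responsive genes, 1 passed with the replicate 1 arrays as a block and a trended, robust variance, where fewer residual degrees of freedom were left. Signs were less steady than calls, and 16 of 19 member probe sets changed sign in some fit, all but those of Cry1, Nr1d1 and Per3 1421087_at. With median centring Dbp came to 0.088 (1418174_at) and 0.058 (1438211_s_at) and Arntl to 0.063. In replicates 2 and 3 alone Nr1d2 came to -0.084 and -0.15, Per1 to -0.12, Clock 1418659_at to -0.058, Arntl to 0.30, Per2 1417603_at to 0.15, and Dbp to 0.12 and 0.033. The cause was not tested.

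With 1 array left out, 26 of 114 values changed sign. Leaving out wild type replicate 1 turned 9 of them, knockout replicate 1 turned 5, and each of the other arrays 2 to 4. Such a fit holds unequal numbers of replicate 1 arrays in the genotypes. The ranges were -0.47 to 0.65 for Arntl, -0.072 to 0.25 (1418659_at), -0.012 to 0.47 (1418660_at) and -0.060 to 0.25 (1435775_at) for Clock, and -0.078 to 0.36 for Per1. For Per2 they were -0.054 to 0.63 (1417602_at), -0.40 to 0.20 (1417603_at) and -0.11 to 0.35 (1457350_at). For Per3 they were -0.21 to 0.44 (1441445_at), -0.20 to 0.60 (1442243_at) and -0.73 to 0.060 (1458176_at). They were -0.32 to 0.205 for Cry2, -0.25 to 0.21 (1416958_at) and -0.25 to 0.38 (1416959_at) for Nr1d2, and -0.14 to 0.15 (1418174_at) and -0.15 to 0.15 (1438211_s_at) for Dbp. Without a change of sign they were 0.23 to 0.62 for Cry1, 0.070 to 0.28 for Nr1d1 and 0.010 to 0.27 for Per3 1421087_at. Between the replicate 1 arrays and the other 4, 8 member probe sets passed (33.1% of all did), 7 with quantile normalization (29.15%) and 9 with median centring (49.97%), 2 scalings chosen after seeing the data. The number of arrays limits the precision.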
